A study of Rattus norvegicus with 8 samples.

Results

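The genes described here are the output and secondary repressor genes of the circadian clock, Dbp, Tef, Hlf, Nfil3, Nr1d1, Nr1d2, Rora, Ciart, Bhlhe40 and Bhlhe41. These 10 were taken by symbol from the 15590 genes of a table of transcript levels in rat Achilles tendon, all 10 had a row, and all 10 passed the filter on low values. Of the 10, 5 were higher in tendons taken immediately after a run (adjusted p under 0.05, met by 3.49% of all tested genes), and these were the repressor genes Bhlhe40, Bhlhe41, Ciart and Nfil3 together with the nuclear receptor gene Rora. Bhlhe40 and Nfil3 stayed under that threshold with each library left out in turn, whereas Bhlhe41 did so in 3 of 8 fits, Rora in 2 and Ciart in 1. When the replicate number was fitted as a block, Bhlhe40 and Bhlhe41 stayed under it, and Nfil3 (limma adjusted p 0.0576), Ciart and Rora did not. Dbp, Tef, Hlf, Nr1d1 and Nr1d2, which the clock drives in many tissues, did not pass the test, and their levels overlapped between the groups.

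The libraries were 4 of naïve controls (NC) and 4 taken at once (0 h) when a treadmill session of 1 h ended (0 h p.r., where p.r. stands for post-run), each made from bulk right Achilles tendon. The rats were wild-type SD males of 8 to 10 weeks, kept under an alternating cycle of light and dark. The treadmill was inclined, and blown air and weak shocks kept the runners moving, whereas the controls stayed in their cages and did not run. In the study's one-time run the controls were killed together with a later post-run group, the clock time of the dissections is not given in the sources used here, and for these genes an effect of running and an effect of the time of day cannot be told apart.

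In the core loop of the clock, CLOCK and its partner, encoded by Arntl (also called Bmal1), bind E-box sequences and switch on genes that include those of their own repressors, the PER and CRY proteins. The genes described here form a layer around that loop: DBP, TEF and HLF activate D-box sites, NFIL3 represses the same sites, REV-ERBα (Nr1d1) and REV-ERBβ (Nr1d2) repress and RORα (Rora) activates genes with ROR elements, and DEC1 (Bhlhe40), DEC2 (Bhlhe41) and CHRONO (Ciart) repress transcription driven by CLOCK and its partner. Bhlhe40 and Nfil3 are also known to respond to signals from outside the clock, such as hypoxia for the former and cytokines for the latter.

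Because the E-box links this layer to the core loop, the promoters were searched for its letters, CACGTG, which read the same on both strands. RefSeq windows (build GRCr8) of the 250 bases before a gene's start were present for 9 of the 10 genes, in 10 windows since Nr1d1 has 2 starts, and Hlf was not among them. An E-box was found in 5 of the 9 genes, where 6.18% of the 27457 genes with a window and 5.59% of the 33469 windows held one. Ciart held 3 copies, at 93, 35 and 21 bases before the start, and only 17 of the 33469 windows (0.0508%) held 3 or more. The other genes with a copy were Bhlhe40 at 220 bases, Bhlhe41 at 48 bases, Tef at 198 bases and Nr1d1 at 191 bases before 1 of its starts. No copy was found in the windows of Dbp, Nfil3, Nr1d2 and Rora. The 4 windows that follow, each read 5′ to 3′ on the gene's strand, show the E-boxes in capitals in 3 repressor genes that were higher after the run and in Tef, which did not pass the test.
Ciart, chr2:186112247-186112496, minus strand: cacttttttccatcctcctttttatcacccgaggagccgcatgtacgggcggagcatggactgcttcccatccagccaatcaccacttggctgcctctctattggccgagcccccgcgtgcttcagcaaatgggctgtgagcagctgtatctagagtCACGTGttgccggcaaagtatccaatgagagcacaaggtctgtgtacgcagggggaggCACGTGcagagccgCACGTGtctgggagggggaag
Bhlhe40, chr4:143174200-143174449, plus strand: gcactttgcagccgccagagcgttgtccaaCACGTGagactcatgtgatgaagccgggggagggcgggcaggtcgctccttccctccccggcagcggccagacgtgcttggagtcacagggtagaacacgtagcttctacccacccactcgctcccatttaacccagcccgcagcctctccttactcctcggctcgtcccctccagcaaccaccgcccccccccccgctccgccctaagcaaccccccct
Bhlhe41, chr4:180569356-180569605, minus strand: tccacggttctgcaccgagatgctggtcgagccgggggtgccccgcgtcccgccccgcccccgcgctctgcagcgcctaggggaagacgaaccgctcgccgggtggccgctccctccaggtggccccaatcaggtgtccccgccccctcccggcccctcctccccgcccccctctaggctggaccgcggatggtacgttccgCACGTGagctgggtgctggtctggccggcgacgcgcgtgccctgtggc
Tef, chr7:115206577-115206826, plus strand: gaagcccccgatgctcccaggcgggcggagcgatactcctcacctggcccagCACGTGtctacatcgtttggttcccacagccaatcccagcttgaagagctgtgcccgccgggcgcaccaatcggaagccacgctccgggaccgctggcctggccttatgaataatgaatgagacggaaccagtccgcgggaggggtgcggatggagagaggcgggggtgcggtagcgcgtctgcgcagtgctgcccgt

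Other elements of the clock were searched on both strands of the same windows. The variant E-box CACGTT was found in Nr1d1, in the window of its other start, which held no CACGTG, and in 4.07% of all windows. The D-box, searched as TTATGTAA or TTACGTAA (0.932% of windows), the ROR element TAGGTCA (2.26%) and the cyclic AMP response element TGACGTCA (1.59%) were not found in the windows of these genes. E-boxes thus stood both in genes that were higher after the run and in genes that did not pass the test, and a match describes the letters only.

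The 8 libraries held 11350560 to 17897056 reads in the listed genes, as recovered from the steps of the deposited FPKM. These are fragments per kilobase of gene length, scaled by a factor per library that did not follow the total of these reads. NC replicate 2 stood apart, with the fewest reads and 31.1% of its FPKM in mitochondrial genes against 16.3% to 21.9% in the others, and it was the lowest of all libraries for Ciart, Bhlhe40, Bhlhe41 and Nr1d2. Without it the log2 fold changes were 2.02 for Ciart (limma adjusted p 0.0844), 2.07 for Bhlhe40 (0.00198), 0.93 for Bhlhe41 (0.0471) and 0.061 for Nr1d2 (0.899). The 10 tendon cell markers were detected in every library, with summed levels of 7629 to 13353 FPKM in NC and 10803 to 22391 FPKM in 0 h p.r. Marker levels of other tissues varied. The 12 adipocyte markers summed to 4227 to 8388 FPKM in NC and 1826 to 2889 FPKM in 0 h p.r. Of these markers, 7 were lower in limma with an adjusted p under 0.05 and a fold of at least 2, as were 0.894% of all tested genes. The 10 skeletal muscle markers with a row summed to 4159 to 8154 FPKM in NC and to 39430, 6665, 17647 and 1172 FPKM in 0 h p.r. replicates 1 to 4. Bone markers summed to 15.4 to 63.6 and then 58.0 to 199 FPKM, with Bglap, Sost and Sp7 at 0 in at least 1 NC library, and cartilage markers to 16.5 to 102 and then 104 to 401 FPKM, with Col10a1 at 0 in 1 NC library. The part of these tissues in the results was not tested, and in bulk RNA fewer cells of a type and less RNA per cell cannot be told apart.

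The comparison asked which of the genes differed between tendons after a run and at rest. In limma, fitted to log2(FPKM + 0.5) over all 13863 tested genes, 4 of the 10 were higher in 0 h p.r. past both thresholds (adjusted p under 0.05 and a fold of at least 2), a rule that 1.80% of the tested genes met. At any fold, 5 of the 10 were higher with an adjusted p under 0.05, as were 3.49% of the tested genes. For the same 5 genes every runner lay above every control, which held for 8.15% of the tested genes. In limma, 0 of the 10 genes were lower, also at an unadjusted p under 0.05 and in a voom fit to the recovered reads. Over all tested genes 0.894% were lower past both thresholds and 2.23% by adjusted p alone, so a count of 0 among 10 is near the background. The median log2 fold change was 0.49 over the 10 genes and -0.0014 over all tested genes.

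**Figure D1:**
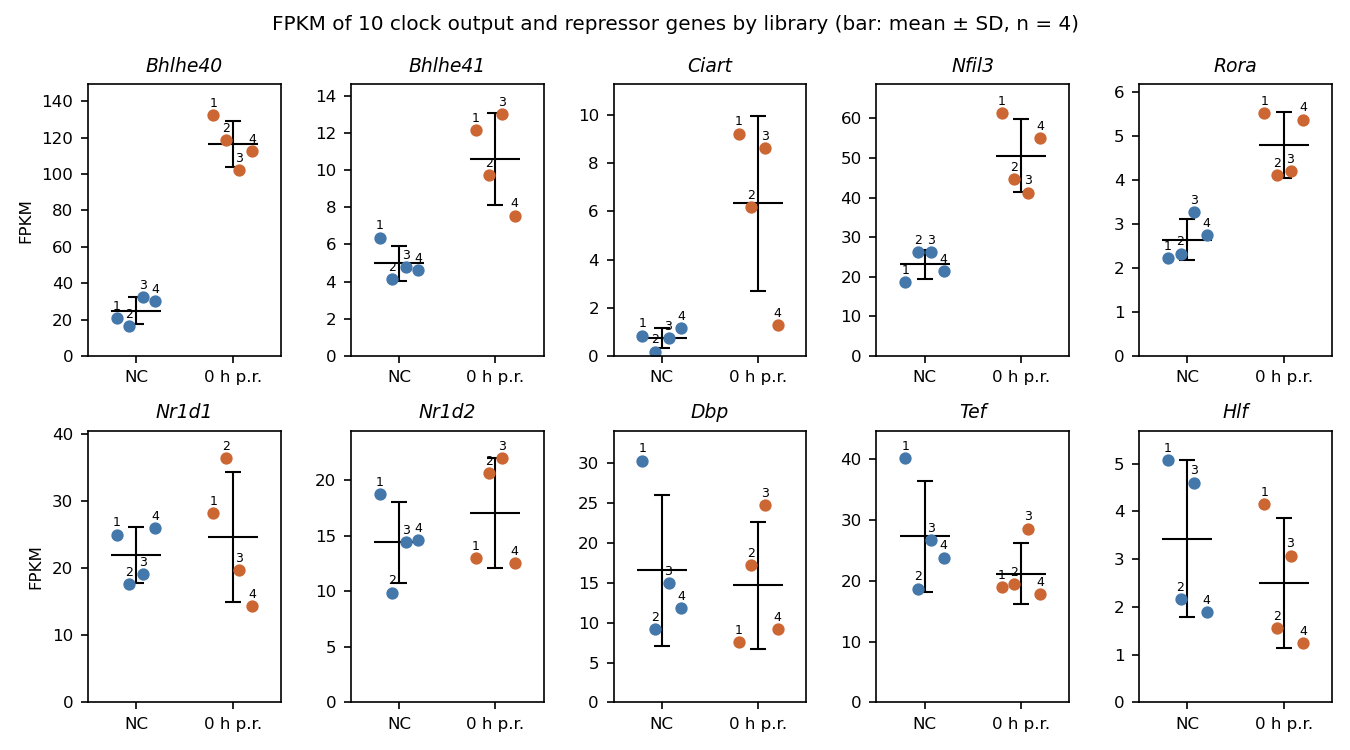
FPKM (y axis, from 0) of the 10 genes in the NC and 0 h p.r. libraries, with each library as a point carrying its replicate number and bars for the mean ± SD (n = 4). The groups are apart in the panels of Bhlhe40, Bhlhe41, Ciart, Nfil3 and Rora, by a narrow gap for Ciart (1.16 against 1.27 FPKM), and overlap in the other 5.

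Bhlhe40 (ENSRNOG00000007152), the gene of the E-box repressor DEC1, had the lowest adjusted p of the 10. Its level was 20.7, 16.4, 32.1 and 30.1 FPKM in NC replicates 1 to 4 and 132, 118, 102 and 113 FPKM in 0 h p.r. replicates 1 to 4. Every runner stood above every control, and the lowest runner had over 3 times the level of the highest control. The group mean was 24.9 ± 7.49 FPKM at rest and 116 ± 12.6 FPKM after the run (SD, n = 4). On the log2 scale the difference was 2.25 ± 0.21 (SE; 4.75-fold, 95% interval 3.42 to 6.61, limma adjusted p 0.000947). With each library left out in turn the limma adjusted p lay between 0.00198 and 0.00653.

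Bhlhe41 (ENSRNOG00000048961), the gene of the paralog DEC2, was a less abundant transcript with a smaller change. Its level was 6.36, 4.14, 4.79 and 4.61 FPKM in NC and 12.2, 9.74, 13.0 and 7.56 FPKM in 0 h p.r. The groups did not overlap, with the lowest runner, replicate 4, just above the highest control, replicate 1. Its log2 fold change, 1.01 ± 0.19 (SE; 2.01-fold, 95% interval 1.48 to 2.72, limma adjusted p 0.0229), stood just inside the fold threshold. When 1 library was left out, the adjusted p was 0.00818 without 0 h p.r. replicate 4 and 0.0688, the highest of the 8 values, without replicate 3 of that group. Bhlhe41 passed both thresholds only without NC replicate 1 or without 0 h p.r. replicate 4.

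The paralogs were also compared with each other. The log2 ratio of Bhlhe40 to Bhlhe41 within a library, taken on FPKM + 0.5, was 1.63, 1.87, 2.62 and 2.58 in NC and 3.39, 3.54, 2.93 and 3.81 in 0 h p.r. All 4 runners had a higher ratio than all 4 controls. The mean log2 ratio differed by 1.24 (2.36-fold), with a two-sided exact permutation p of 0.0286, the smallest that 4 against 4 libraries allow. After adjustment over the 7 pairs compared it was 0.20. A single pair at the smallest p cannot go lower than that, so the correction could not be passed here and decides nothing. Without NC replicate 1 or without NC replicate 2 the difference did not pass the unadjusted threshold. Every runner still had a higher ratio than every remaining control there, and an exact test on so few libraries moves in large steps.

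Ciart (ENSRNOG00000042717), which encodes CHRONO and carries the 3 E-boxes shown above, had an estimated change near that of Bhlhe40 and a wider interval. The order of these genes turned with the settings, with 1.91 for Ciart and 2.22 for Bhlhe40 on the log2 scale at a pseudocount of 1. Its level was 0.842, 0.174, 0.745 and 1.16 FPKM in NC, from 26, 3, 19 and 30 reads. In 0 h p.r. it was 9.22, 6.19, 8.62 and 1.27 FPKM, from 213, 195, 192 and 40 reads. Thus 3 runners stood far above the controls, and replicate 4 stood beside the highest control. The estimate was 2.28 ± 0.53 on the log2 scale (SE; 4.87-fold, 95% interval 2.12 to 11.2, limma adjusted p 0.0415), while the ratio of the mean FPKM was 8.66. Without 0 h p.r. replicate 4 the limma adjusted p was 0.00229, and with any other library left out it was 0.0636 to 0.120, so the call at all 8 libraries is near its threshold. In voom on the recovered reads the log2 fold change was 2.80 and the adjusted p 0.120. Replicate 4 was also the runner with the lowest muscle signal. Its summed tendon cell, adipocyte, bone and cartilage markers were the highest of the runners. The part of these differences in its Ciart level was not tested.

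Nfil3 (ENSRNOG00000011668), the gene of the D-box repressor NFIL3 (E4BP4), was higher in the runners than in the controls. Its level was 18.6, 26.3, 26.2 and 21.5 FPKM in NC and 61.4, 44.7, 41.3 and 55.0 FPKM in 0 h p.r. The runners all lay above the controls, and replicates 1 and 4 were the highest. The group difference was 1.11 ± 0.17 on the log2 scale (SE, 2.16-fold, 95% interval 1.66 to 2.80, limma adjusted p 0.00811). It passed both thresholds with each of the 8 libraries left out in turn, at adjusted p 0.0137 to 0.0293. The call was lost with the replicate number fitted as a block (limma adjusted p 0.0576). With replicates 1 and 4 of 0 h p.r. both left out, a choice made after seeing the data, the log2 fold change was 0.89 and the adjusted p 0.0432, which is under the fold threshold.

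Rora (ENSRNOG00000027145), which encodes the activator RORα, had an adjusted p under the threshold with a fold below 2. Its level was 2.23, 2.33, 3.27 and 2.74 FPKM in NC and 5.52, 4.11, 4.20 and 5.37 FPKM in 0 h p.r. The groups did not overlap. Its log2 difference was 0.76 ± 0.16 (SE; 1.69-fold, 95% interval 1.31 to 2.18, limma adjusted p 0.0328). With 1 library left out the adjusted p stayed under 0.05 in 2 of 8 fits and reached 0.101 without NC replicate 1.

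**Figure D2:**
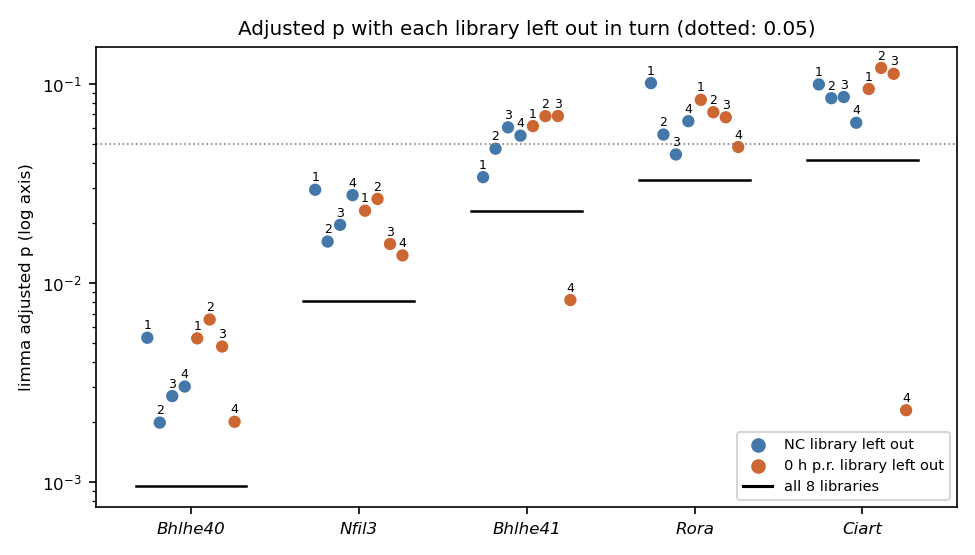
The limma adjusted p (y axis, log scale) of the 5 genes that were higher after the run, with each library left out in turn; points carry the replicate number of the library left out, horizontal lines give the value with all 8 libraries, and the dotted line marks 0.05. Bhlhe40 and Nfil3 stay under the line in all 8 fits, Bhlhe41 in 3, Rora in 2 and Ciart in 1.

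The REV-ERB genes, whose products oppose RORα at the same elements, did not pass the test. Nr1d1 (ENSRNOG00000009329) was at 25.0, 17.6, 19.0 and 25.9 FPKM in NC and 28.2, 36.3, 19.7 and 14.3 FPKM in 0 h p.r. The runners spanned the whole range of the controls and went beyond it on both sides. Its log2 fold change was 0.10 (95% interval -0.51 to 0.72, limma adjusted p 0.877), and it was -0.11 without 0 h p.r. replicate 2. Nr1d2 (ENSRNOG00000046912) was at 18.7, 9.85, 14.4 and 14.6 FPKM in NC and 13.0, 20.6, 22.0 and 12.5 FPKM in 0 h p.r. Here replicates 2 and 3 of the runners stood above the controls and replicates 1 and 4 among them. For Nr1d2 the log2 fold change was 0.22 (95% interval -0.32 to 0.77, limma adjusted p 0.651). The intervals leave room for changes of either sign in both genes.

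The D-box activator genes did not pass the test either, and Dbp and Hlf varied widely within each group. Dbp (ENSRNOG00000021027) was at 30.3, 9.19, 14.9 and 11.8 FPKM in NC and 7.56, 17.2, 24.8 and 9.17 FPKM in 0 h p.r. Its highest and lowest library differed 3.30-fold within NC and 3.28-fold within 0 h p.r. For Dbp the log2 fold change was -0.18 (95% interval -1.16 to 0.80, limma adjusted p 0.867), and without NC replicate 1, the library with the highest level, it was 0.16. Tef (ENSRNOG00000019383) was at 40.2, 18.7, 26.7 and 23.8 FPKM in NC and 19.0, 19.5, 28.6 and 17.8 FPKM in 0 h p.r. Hlf (ENSRNOG00000002456) was at 5.07, 2.16, 4.60 and 1.89 FPKM in NC and 4.15, 1.55, 3.08 and 1.25 FPKM in 0 h p.r. From lowest to highest library, Tef spanned 2.15-fold in NC and 1.61-fold in 0 h p.r., and Hlf 2.68-fold and 3.33-fold. NC replicate 1 was the highest of all libraries for each of these 3 genes. Tef gave a log2 fold change of -0.33 (95% interval -0.86 to 0.20, limma adjusted p 0.466) and Hlf one of -0.40 (95% interval -1.28 to 0.48, limma adjusted p 0.607).

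Pairs of family members or of opposing factors were compared within each library as log2 ratios of FPKM + 0.5. Apart from Bhlhe40 and Bhlhe41, the 6 other pairs overlapped between the groups. The log2 ratio of the activator gene Dbp to the repressor gene Nfil3 was -0.60 ± 0.91 at rest and -1.89 ± 1.02 after the run (SD, n = 4), with an exact permutation p of 0.20 and an adjusted p of 0.467. That of Nr1d1 to Rora was 2.82 ± 0.37 at rest and 2.17 ± 0.68 after the run (SD, n = 4), with an exact permutation p of 0.143 and an adjusted p of 0.467. Within the D-box activators the mean log2 ratio changed by 0.15 for Dbp to Tef, 0.22 for Dbp to Hlf and 0.070 for Tef to Hlf, and for Nr1d1 to Nr1d2 by -0.12, all with exact permutation p of at least 0.714.

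FPKM is scaled by gene length, so the mean levels can also be ordered between genes. In NC the order was Tef at 27.4, Bhlhe40 at 24.9, Nfil3 at 23.1, Nr1d1 at 21.9, Dbp at 16.6 and Nr1d2 at 14.4 FPKM, and neighbors in this order overlapped. Below them stood Bhlhe41 at 4.98, Hlf at 3.43 and Rora at 2.64 FPKM, which overlapped among themselves in this order but not with Nr1d2, and then Ciart at 0.731 FPKM, whose 4 libraries were under those of Rora. In 0 h p.r. Bhlhe40 led at 116 FPKM, followed by Nfil3 at 50.6 FPKM, and the libraries of these genes overlapped neither with each other nor with Nr1d1, the next at 24.6 FPKM. From Nr1d1 down, through Tef at 21.2, Nr1d2 at 17.0, Dbp at 14.7, Bhlhe41 at 10.6, Ciart at 6.33, Rora at 4.80 and Hlf at 2.51 FPKM, neighbors overlapped.

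The spread of the output genes within a group followed the library. NC replicate 1 had the highest Dbp, Tef, Hlf and Nr1d2 of the controls and the lowest Arntl and Npas2, the genes of a partner and a paralog of CLOCK, whose transcripts are known to peak at the opposite phase to Dbp. Among the runners, replicate 3 had the highest Dbp, Tef and Nr1d2 and the lowest Arntl and Npas2. Arntl was at 7.85, 16.9, 13.6 and 17.0 FPKM in NC and 21.6, 13.0, 6.88 and 19.3 FPKM in 0 h p.r. The ratio of Dbp to Arntl FPKM was 3.86, 0.543, 1.10 and 0.695 in NC and 0.350, 1.33, 3.60 and 0.476 in 0 h p.r. It thus spanned 7.11-fold among the controls and 10.3-fold among the runners, while the medians of the groups were 0.898 and 0.901. Medians of other ratios differed more between NC and 0 h p.r., without a test: 4.92 and 2.64 for Dbp to Npas2, 1.68 and 1.21 for Tef to Arntl, 1.46 and 2.05 for Nr1d1 to Arntl, and 0.0615 and 0.452 for Ciart to Arntl. Nr1d1 did not follow this order, being highest in NC replicate 4 and 0 h p.r. replicate 2, and Hlf was highest among the runners in replicate 1. The time at which each animal was killed was not available for setting beside these ratios.

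**Figure D3:**
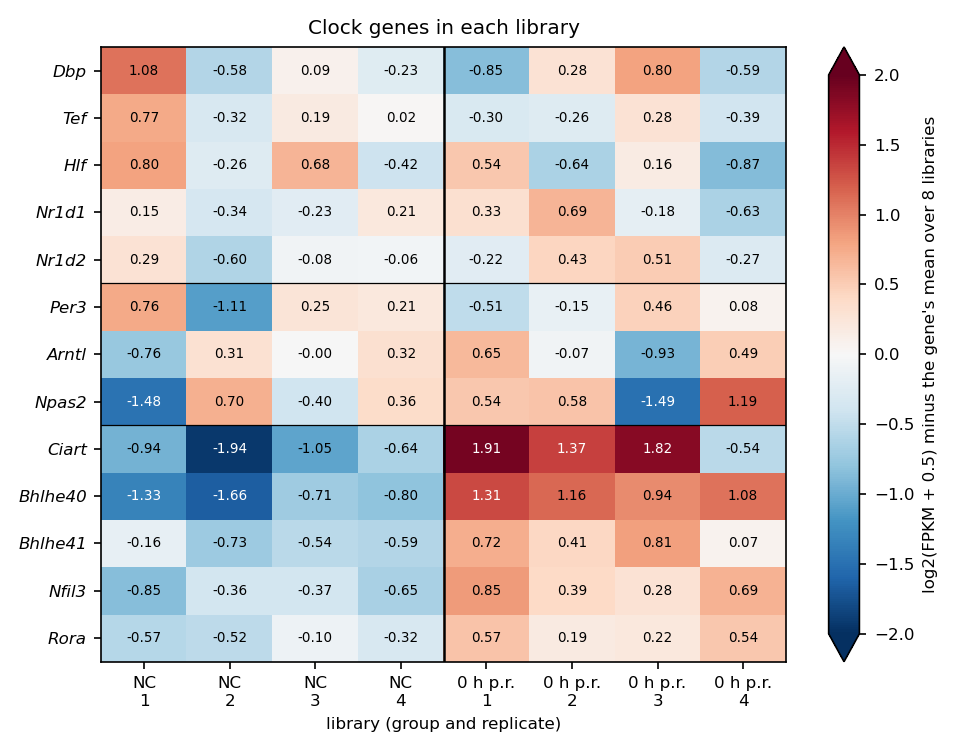
log2(FPKM + 0.5) minus the gene's mean over the 8 libraries (color and printed value) for the 10 genes and for Per3, Arntl and Npas2 (rows) in each library (columns, groups separated by a line). Dbp, Tef and Per3 are high and Arntl and Npas2 low in NC replicate 1 and in 0 h p.r. replicate 3, whereas Ciart, Bhlhe40, Bhlhe41, Nfil3 and Rora differ between the groups.

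The core loop was taken as the rest of the pathway. Of 16 listed genes, 14 had a row and 13 were tested, Arntl2 falling under the filter. In limma, 0 of the 13 passed both thresholds in either direction, where 2.70% of all tested genes did, so this count too is near the background. Of the 13, 5 had an unadjusted p under 0.05 in either direction (22.6% of all tested genes did), and voom on the recovered reads also called 0. Csnk1e, which encodes a kinase of the PER proteins, was the only one with an adjusted p under 0.05, going from 16.5, 13.7, 16.5 and 16.1 FPKM to 23.3, 22.1, 21.0 and 22.0 FPKM, a log2 difference of 0.48 (limma adjusted p 0.0328). The repressor genes Per1, Per2 and Cry1 had log2 fold changes of 0.58, 0.56 and 0.54 with limma adjusted p of 0.115, 0.368 and 0.118. All 4 runners were above all 4 controls for 4 of the 13, Per1, Cry2, Csnk1d and Csnk1e, as for 8.15% of all tested genes. The median log2 fold change over the 13 genes was 0.39, and 10 of them were above 0, as were 6914 of the 13863 tested genes.

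A list of genes known to cycle in most rodent tissues was read in the same way, with 6 of 7 having a row. Usp2, which encodes a deubiquitinase, passed both thresholds as higher, at 7.58, 3.13, 8.52 and 5.82 FPKM in NC and 31.2, 17.8, 19.0 and 22.2 FPKM in 0 h p.r. (log2 difference 1.82, 95% interval 1.16 to 2.48, limma adjusted p 0.0110). Nampt, the gene of an enzyme of NAD synthesis, went from 37.3, 33.1, 32.9 and 33.9 FPKM to 67.2, 54.2, 78.9 and 52.4 FPKM, a log2 difference of 0.85 (limma adjusted p 0.0135), below the fold threshold. Thus 1 of the 6 was higher past both thresholds (1.80% of all tested genes) and 2 by adjusted p (3.49%), and for these 2 every runner was above every control (8.15%). Tsc22d3, Wee1 and Alas1 had log2 fold changes of -0.43, 0.41 and 0.38 and did not pass (limma adjusted p 0.262 to 0.299). The median over the 6 genes was 0.39.

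**Figure D4:**
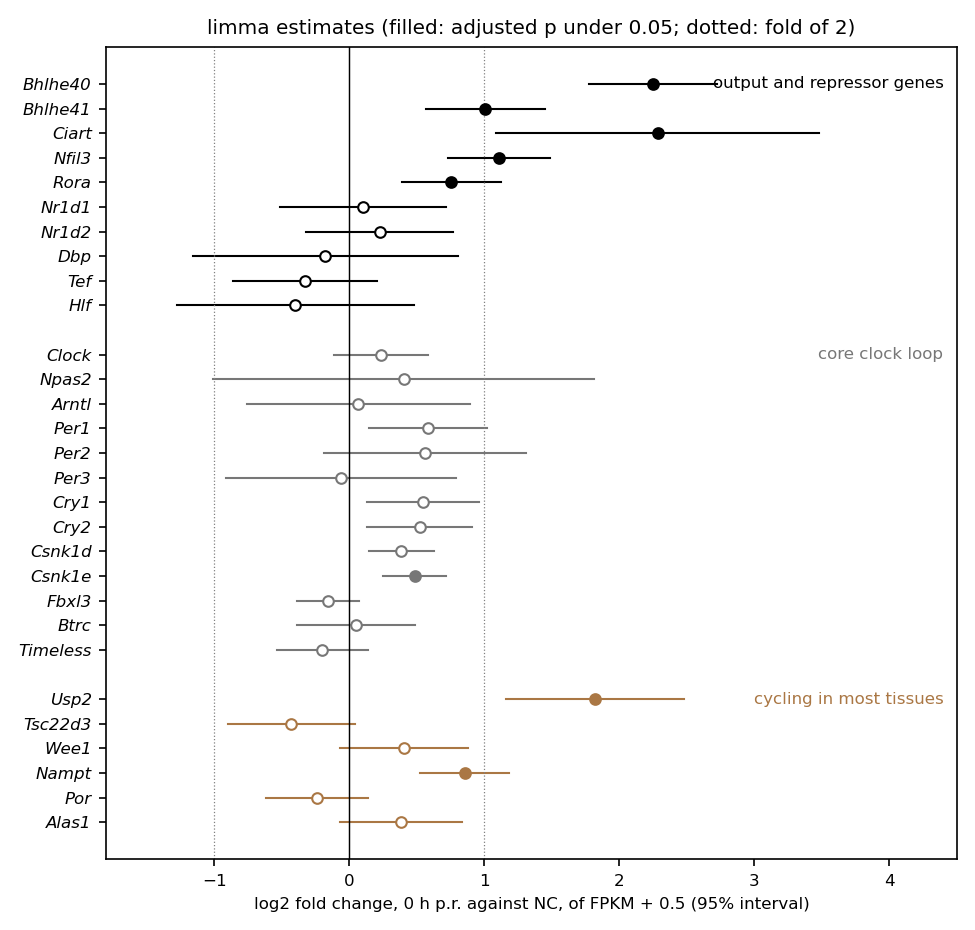
limma log2 fold change of FPKM + 0.5, 0 h p.r. against NC (x axis, points with 95% intervals), for the 10 output and repressor genes, the core loop and the genes that cycle in most tissues; filled points have an adjusted p under 0.05 and dotted lines mark a fold of 2. Bhlhe40, Ciart and Usp2 lie farthest to the right, and the intervals of Dbp, Tef, Hlf, Nr1d1 and Nr1d2 span 0.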

How the data were processed

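Polyadenylated RNA of 8 tendons was sequenced as stranded libraries. Per the methods and the submitters' processing notes, the authors aligned reads with HISAT2 2.1.0 to Rnor_6.0, counted them with featureCounts 1.6.3 and normalized with DESeq2 1.30.1. The deposited values are FPKM per gene and library. The authors' own comparison (3 columns of log2 fold changes and p-values) was not used.

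Groups and replicate numbers came from the sample titles, and nothing in them ties a number to an animal in the other group, so p-values measure the spread between these samples. Genes were tested (13863 of 15590) where 4 or more libraries reached an FPKM of 0.5, with limma 3.58.1 in R 4.3.3 on log2(FPKM + 0.5), two-sided, with trend and Benjamini-Hochberg adjustment over all tested genes. Folds on this scale understate changes of low genes. Whole reads came out for 100% of genes (tolerance 0.02 reads; median 218 per gene and library) and served as depth and for voom. On simulated reads the same limma fit recovered 96.0% of genes changed 4-fold, and 4.52% of its calls were unchanged genes. Each gene was drawn on its own, with the same dispersion for all genes and no differences in tissue makeup. The real libraries differ in tissue makeup, so these rates do not carry over to them. Smaller folds were not simulated. Pairs used an exact permutation test over 70 assignments (Python 3.11.15, numpy 2.4.6). Replicates differed by more than sampling noise (lowest chi-square per gene 29.8).

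Text names all 10 genes, and from 2 lists (core loop, genes cycling in most tissues) those with an adjusted p under 0.05 and the next 3 by size of change; for the largest rise and fall among the 10, the 3 most similar genes. Members, lists and tests were chosen with earlier results of these data known. Alternatives were pseudocounts of 0.1 and 1, the filter dropped or set to a mean FPKM of 2, quantile scaling, array weights, voom, the replicate number as a block, the adjusted p alone and leaving out libraries.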

Additional observations from a re-analysis of the deposited data

How the results depend on the processing

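The number of the 10 genes past both thresholds was 4, and between 3 and 5 under other pseudocounts, filters, scaling, array weights, voom, the adjusted p alone, and without 0 h p.r. replicates 1 and 4 (added after seeing the data). Over all tested genes it was 374, and 322 to 505 under these settings, the adjusted p alone aside. With 1 library left out, 2 to 4 of the 10 passed (2 in 6 of the 8 fits), with Bhlhe40 and Nfil3 passing in each of the 8 fits. The count over all tested genes moved as well, from 191 without 0 h p.r. replicate 2 to 504 without 0 h p.r. replicate 4. The core loop count of 0 became 1 by adjusted p alone and stayed 0 otherwise. The 1 pair past an exact permutation p of 0.05 became 0 to 1 with 1 library left out, being lost without NC replicate 1 or 2, where the groups still did not overlap. The log2 fold change of Dbp ranged from -0.47 to 0.16 with 1 library left out, and changed sign without NC replicate 1 (0.16), without 0 h p.r. replicate 1 (0.077) and without 0 h p.r. replicates 1 and 4 (0.45), and that of Nr1d1 ranged from -0.11 to 0.33 and changed sign without 0 h p.r. replicate 2; the cause was not tested. Bhlhe41 fell just under the fold threshold at a pseudocount of 1 (0.95), with quantile scaling (0.99) and with array weights (0.97). Ciart rests on 3 to 30 reads per library in NC.

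Over all tested genes the replicate numbers showed no pairing of the libraries: deviations of same-numbered libraries correlated at -0.14 to 0.072, and 0 of 8 libraries correlated best with their own number. A link limited to some genes was not tested. For Hlf the limma adjusted p was 0.247 with the block and 0.607 without it. With the replicate number as a block, 2 of the 10 genes passed both thresholds, Bhlhe40 and Bhlhe41, with Nfil3 at a limma adjusted p of 0.0576, Ciart at 0.0962 and Rora at 0.111. Over all 13863 tested genes, 212 passed both thresholds under the block and 374 without it. For the pairs, the block was not run.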

Other observations

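Genes whose levels over the 8 libraries were most like those of Ciart, which had the highest log2 fold change of the 10 at a pseudocount of 0.5 with all 8 libraries but not at a pseudocount of 1, were Sema6d (Pearson's r 0.996), Arih1 (0.995) and Smap2 (0.989). Sema6d, which encodes a transmembrane semaphorin, was at 5.59, 4.33, 5.97 and 7.17 FPKM in NC and 16.9, 14.1, 15.6 and 6.64 FPKM in 0 h p.r. As with Ciart, replicate 4 was the only runner beside the controls. Arih1, the gene of a ubiquitin ligase, showed a like pattern on a smaller scale, with 28.5 to 31.4 FPKM in the first 3 runners and 16.4 to 19.9 FPKM in NC, and replicate 4 just above the highest control. None of the 3 passed the test (limma adjusted p 0.0578, 0.0850 and 0.141).

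For Hlf, which had the lowest log2 fold change at the same settings but not with quantile scaling (-0.36 against -0.42 for Tef), the most similar were Nr2f6 (0.955), Gpd1 (0.947) and Prkaca (0.939). Gpd1, a gene of glycerol metabolism, was at 149, 71.0, 94.6 and 60.3 FPKM in NC and 136, 53.8, 88.8 and 49.9 FPKM in 0 h p.r., so that replicates 1 and 3 were high and replicates 2 and 4 low in both groups, as for Hlf. These correlations describe 8 points that share the group difference and each library's tissue makeup, and they were picked as the highest among all tested genes.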
